A study of Mus musculus with 4 samples.

Results

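The 10 genes described here encode the receptors by which group 2 innate lymphoid cells (ILC2s) sense alarmins and cytokines, together with the surface proteins by which they are sorted. They were chosen by name: *Il1rl1*, *Il17rb*, *Crlf2*, *Il7r*, *Il2ra*, *Il9r*, *Il18r1*, *Icos*, *Klrg1* and *Thy1*. All 10 were found among the 49315 genes of the count table, and all 10 were among the 14840 genes with a level of 1 CPM (counts scaled to a common library size) or more in at least 1 library, which were the genes compared. RNA came from cells sorted from the lungs of mice by the phenotype Thy1.2+ ICOS+ T1/ST2+ and Lineage-, after negative selection for ILCs, and then kept in culture with IL-2. There were 4 groups with 1 library each: WT mice given PBS (PBS-WT), *Hps1*-/- mice given PBS (PBS-HPS1), WT mice given bleomycin (BLEO-WT) and *Hps1*-/- mice given bleomycin (BLEO-HPS1). The mice were on a C57BL/6 background, and the *Hps1*-/- mice carry a null allele of a gene that is mutated in Hermansky-Pudlak syndrome, in which pulmonary fibrosis develops. Bleomycin is a drug used to cause lung injury and fibrosis in mice. It was given by several routes in different experiments, and the sources used here do not say which route, age or number of mice stood behind a library. The libraries were made from 22405, 38873, 84166 and 128647 cells, in the order of groups above. None of the groups lacked T or B cells by genotype.

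ILC2s are tissue lymphocytes without rearranged antigen receptors, and in the lung they respond to alarmins released by injured epithelium. IL-33 binds T1/ST2, the product of *Il1rl1*. IL-25 binds a receptor that contains IL-17RB, and TSLP binds a receptor made of CRLF2 and the IL-7 receptor chain. IL-7, IL-2 and IL-9 maintain or expand the cells through the common gamma chain, IL-18 acts through a receptor of the IL-1 family, and ICOS, KLRG1 and Thy1 are used to recognise the cells by flow cytometry. Outside ILC2s, *Il1rl1* is also known from mast cells and regulatory T cells. *Il7r*, *Icos*, *Il2ra*, *Il18r1* and *Thy1* are known from T cells, and *Thy1* also from fibroblasts. *Klrg1* is known from NK and effector T cells, and *Crlf2* from myeloid cells.

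Promoter sequence was held for 7 of the 10 genes, and the 3 alarmin receptor genes are shown because they read the signals of injured epithelium and differ in the words searched. Each line gives the 250 bases before a RefSeq transcription start on GRCm38.p6, on the strand of the gene, and capitals mark the GATA words, which here are AGATAA with its variant ending in G (AGATAG) and the same pair starting with T (TGATAA, and likewise TGATAG), read on both strands. *Il1rl1* has both an upstream start (window chr1:40429320-40429569, plus strand) and an inner start (chr1:40439379-40439628, plus strand), *Il17rb* is shown from chr14:30008897-30009146 and *Crlf2* from chr5:109558994-109559243, both on the minus strand.
Il1rl1, upstream start: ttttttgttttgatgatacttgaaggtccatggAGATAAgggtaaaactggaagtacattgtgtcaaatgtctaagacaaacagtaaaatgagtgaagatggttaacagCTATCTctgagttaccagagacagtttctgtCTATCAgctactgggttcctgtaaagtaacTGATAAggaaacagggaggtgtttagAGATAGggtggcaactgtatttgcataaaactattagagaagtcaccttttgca
Il1rl1, inner start: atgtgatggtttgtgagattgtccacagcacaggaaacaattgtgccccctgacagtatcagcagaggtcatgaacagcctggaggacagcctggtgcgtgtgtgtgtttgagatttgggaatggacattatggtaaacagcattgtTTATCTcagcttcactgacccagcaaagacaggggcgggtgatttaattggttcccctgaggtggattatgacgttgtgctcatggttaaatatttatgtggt
Il17rb: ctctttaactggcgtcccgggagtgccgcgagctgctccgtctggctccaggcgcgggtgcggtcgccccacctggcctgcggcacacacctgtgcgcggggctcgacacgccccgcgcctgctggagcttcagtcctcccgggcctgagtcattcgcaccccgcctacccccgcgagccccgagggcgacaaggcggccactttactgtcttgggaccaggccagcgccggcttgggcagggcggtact
Crlf2: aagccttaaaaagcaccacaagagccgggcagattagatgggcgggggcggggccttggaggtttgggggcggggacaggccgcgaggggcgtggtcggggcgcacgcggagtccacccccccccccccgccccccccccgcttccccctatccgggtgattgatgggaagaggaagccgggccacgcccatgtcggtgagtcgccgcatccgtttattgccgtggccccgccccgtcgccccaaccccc
The upstream *Il1rl1* window held 5 of these words, whose first bases lay at -217, -141, -110, -80 and -54 from the start, and the inner window held 1, at -103. The *Il17rb* and *Crlf2* windows held 0. In windows of 300 bases, which run to 50 bases past the start, 9778 of 32851 RefSeq windows (29.8%) held at least 1 such word. Of 10 windows of the receptor genes, 3 did, and besides the *Il1rl1* windows this was that of *Il9r*, with 2 words. GC content over 300 bases was 72.0% for *Il17rb* and 71.7% for *Crlf2*, against 38.7% and 44.7% for the *Il1rl1* windows. A word in a window describes these letters and is not a binding site, and the counts per gene do not tell from which start an *Il1rl1* transcript came, nor whether it encodes the membrane or the soluble form of T1/ST2.

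Before the receptors are described, the libraries have to be set beside their label. The deposited totals were 72513619 to 87638154 reads. *Hps1* had 2989 reads in PBS-WT and 3795 in BLEO-WT, against 1647 in PBS-HPS1 and 1347 in BLEO-HPS1, so it was lower in both libraries labelled *Hps1*-/-. All 4 libraries held RNA of many other lung cells. Per kb of transcript, a scale on which genes of unequal length can be compared, *Il1rl1* had a level of 4.48 to 7.72 CPM, whereas *Lyz2*, a lysozyme gene of macrophages and alveolar epithelium, had 4623 to 9988. The surfactant gene *Sftpc* of alveolar epithelium had 233 to 1031 CPM per kb, the macrophage gene *Cd68* 174 to 479 and the T cell gene *Cd3e*, whose protein is part of the excluded lineage panel, 46.2 to 92.0. *Trac*, the constant gene of the T cell receptor alpha chain, had 69.7 to 113 CPM per kb. *Gata3*, the transcription factor that ILC2s require, had 7.80 to 12.2 CPM per kb, and *Ptgdr2*, the gene of CRTH2, had only 19 to 81 reads in a library. *Il5*, a cytokine gene typical of ILC2s, had 23 to 105 reads. The study's methods describe a sort of high purity, and the levels of the markers of other cells, measured after the culture, go against it. The libraries are therefore called here by their group and not by a pure cell type, and in such RNA fewer cells of a type and less RNA per cell cannot be told apart.

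**Figure D1:**
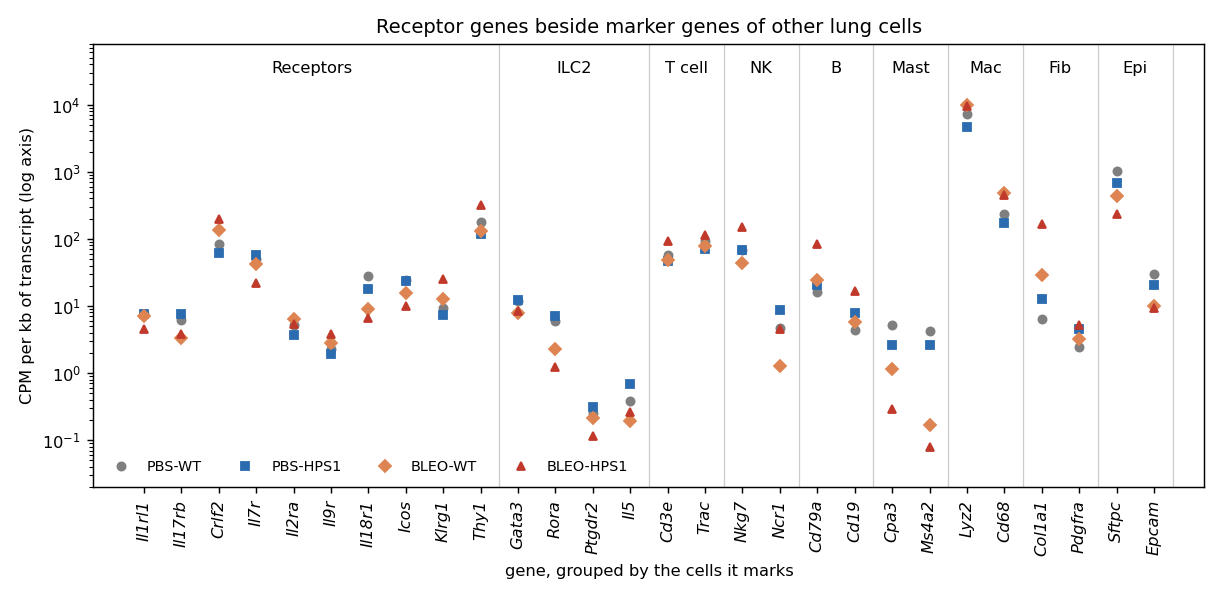
Levels of the 10 receptor genes and of marker genes of ILC2s, T cells, NK cells, B cells, mast cells, macrophages (Mac), fibroblasts (Fib) and epithelium (Epi), in CPM per kb of transcript on a log axis, with 1 symbol per library. *Il1rl1* lies between 4.48 and 7.72 in the 4 libraries, *Cd3e* between 46.2 and 92.0 and *Lyz2* between 4623 and 9988.

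Marker lists moved between the groups as well. The summed level of 14 T cell genes was 1240, 958, 1166 and 2148 CPM over the libraries in the order PBS-WT, PBS-HPS1, BLEO-WT, BLEO-HPS1, and BLEO-HPS1 exceeded BLEO-WT for all 14, 4 of them at least 2-fold, a ratio that 6.72% of all compared genes reached in that direction. For 12 NK and ILC1 genes the sums were 295, 390, 143 and 455 CPM, with 8 of 12 at least 2-fold above BLEO-WT in BLEO-HPS1, against the same 6.72%. Fibroblast genes summed to 256, 400, 674 and 3171 CPM over 12 genes, and mast cell and basophil genes to 199, 199, 110 and 61.9 CPM over 10 genes, in the same order. In the last list the defining genes were near 0 after bleomycin, with 32 and 12 reads of *Ms4a2* and 131 and 27 of *Cpa3* in BLEO-WT and BLEO-HPS1. *Ptprc*, the gene of the pan-leukocyte antigen CD45, had 1430, 1151, 529 and 333 CPM. Its bleomycin-to-PBS log2 ratio was -1.43 in WT and -1.79 in *Hps1*-/- mice, and -0.92 and -0.41 after the GC and length correction described next, so a ratio relative to *Ptprc* carries that dependence too. The part of these shifts in the values of the receptor genes was not tested.

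A second property of the libraries bears on every ratio given here. Across the 11133 genes with enough reads for the fit, the log2 ratio of BLEO-HPS1 to PBS-HPS1 rose with the GC content of the transcript, with a Spearman rho of 0.625, and fell with its length, with a rho of -0.522. For BLEO-WT against PBS-WT rho was 0.498 for GC content and -0.256 for length, for BLEO-HPS1 against BLEO-WT 0.637 and -0.501, and for PBS-HPS1 against PBS-WT -0.0811 and 0.43. These are correlations across genes, which share the same libraries and are not replicates. GC content of the receptor transcripts ran from 40.5% for *Il7r* over 43.0% for *Icos*, 43.4% for *Il1rl1*, 44.0% for *Il18r1*, 44.4% for *Il2ra*, 47.7% for *Klrg1*, 50.4% for *Il9r*, 51.6% for *Il17rb* and 55.8% for *Thy1* to 65.6% for *Crlf2*. Each ratio is therefore given as measured and, where the step changes what a reader would take from it, after a loess step that corrects for GC and length. Intervals are exact 95% intervals and cover counting error only. With 1 library per group no difference was tested against the spread between mice, and all genes named as higher or lower are so between single libraries.

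**Figure D2:**
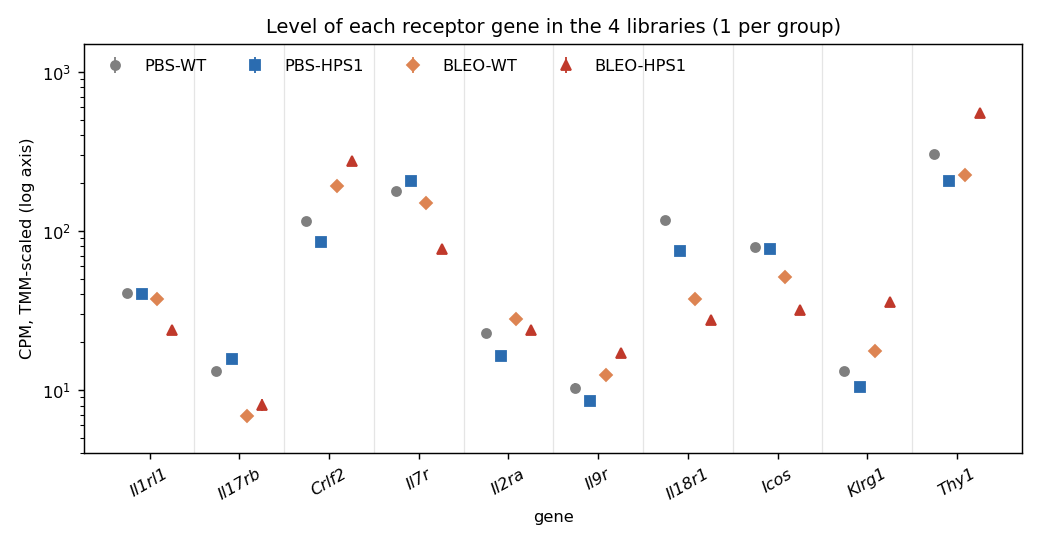
Level of each receptor gene in CPM, scaled with TMM factors, on a log axis, with 1 point per library; bars are exact 95% counting intervals and are mostly smaller than the symbols. *Crlf2*, *Klrg1*, *Il9r* and *Thy1* are highest in BLEO-HPS1, and *Il1rl1*, *Il7r*, *Il18r1* and *Icos* are lowest there.

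*Il1rl1* (ENSMUSG00000026069, plus strand of chromosome 1 from 40429570 to 40465415 in GENCODE M21, GRCm38) was counted with 3191 reads in PBS-WT and 3954 in PBS-HPS1, then 2923 in BLEO-WT and 1502 in BLEO-HPS1, or 40.9, 39.9, 37.3 and 23.8 CPM. The first 3 libraries were close and BLEO-HPS1 stood below them. The log2 ratio was -0.04 (95% interval -0.10 to 0.03) for PBS-HPS1 against PBS-WT, -0.13 (-0.21 to -0.06) for BLEO-WT against PBS-WT, -0.75 (-0.83 to -0.66) for BLEO-HPS1 against PBS-HPS1 and -0.65 (-0.74 to -0.56) for BLEO-HPS1 against BLEO-WT. With total counts alone, without TMM factors, the first of these was 0.21. After the GC and length correction the last 3 were 0.33, 0.56 and 0.06, so the lower level in BLEO-HPS1 did not remain in that setting. The last 2 were 1.04 and 0.02 relative to *Ptprc*. They were -1.97 and -1.65 relative to the summed CD3 chains of T cells, a choice made after the data were seen. Cells were sorted for the T1/ST2 protein in every group, and transcripts were measured after culture.

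*Il17rb* (ENSMUSG00000015966, minus strand of chromosome 14 from 29996135 to 30008896) encodes the chain that binds IL-25. It had 1026 reads in PBS-WT and 1551 in PBS-HPS1, then 538 in BLEO-WT and 510 in BLEO-HPS1, or 13.2, 15.7, 6.86 and 8.07 CPM. Both bleomycin libraries were below both PBS libraries. The bleomycin-to-PBS log2 ratio was -0.94 (-1.09 to -0.79) in WT and -0.95 (-1.10 to -0.81) in *Hps1*-/- mice, and the correction moved these to -1.02 and -1.40. As measured, the ratios of the 2 genotypes differed by -0.02, the smallest difference among the 10 receptor genes, but by -0.38 after the correction, when *Icos* (-0.06) and *Il1rl1* (0.24) had smaller ones. Relative to *Ptprc*, however, which was itself much lower after bleomycin, the ratios were 0.50 and 0.83. *Il17rb* overlaps *Actr8* on the opposite strand, which had 2263, 2263, 2234 and 1847 reads, and reads of the overlap cannot be told apart if strand was not used in counting.

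*Crlf2* (ENSMUSG00000033467, minus strand of chromosome 5 from 109554709 to 109558993), which encodes the chain specific for TSLP, went the other way. There were 9073 reads in PBS-WT and 8455 in PBS-HPS1, then 15144 in BLEO-WT and 17468 in BLEO-HPS1, or 116, 85.4, 193 and 277 CPM. Both bleomycin libraries were above both PBS libraries, with a log2 ratio of 0.73 (0.69 to 0.77) in WT and 1.69 (1.66 to 1.73) in *Hps1*-/- mice. *Crlf2* has the highest GC content of the 10 transcripts, and after the correction these were 0.38 and 0.83, while that of BLEO-HPS1 to BLEO-WT went from 0.52 to -0.02. Macrophage and monocyte genes, 12 in number, summed to 12004, 7993, 20173 and 20317 CPM in the 4 libraries in the order used throughout. These sums too were higher in both bleomycin libraries, but not every gene was. With bleomycin 11 of the 12 were higher and 1 lower in WT, and 9 higher and 3 lower in *Hps1*-/- mice. At least 2-fold, 6 were higher and 1 lower in WT, against 5.28% and 8.22% of all genes. In *Hps1*-/- mice 7 were higher and 2 lower by as much, against 26.2% and 19.6%.

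Of those among the 10 genes that encode receptors for cytokines of the common gamma chain, *Il7r* (ENSMUSG00000003882, minus strand of chromosome 15 from 9505788 to 9530176) was the most abundant. It serves both IL-7 and TSLP, and had 14000 reads in PBS-WT and 20309 in PBS-HPS1, then 11701 in BLEO-WT and 4858 in BLEO-HPS1, or 180, 205, 149 and 76.9 CPM. BLEO-HPS1 was lowest, and PBS-HPS1 was above PBS-WT with a log2 ratio of 0.19 (0.16 to 0.22). The bleomycin-to-PBS log2 ratio was -0.27 (-0.30 to -0.23) in WT and -1.42 (-1.46 to -1.37) in *Hps1*-/- mice. After the correction these were 0.32 and -0.10, and *Il7r* has the lowest GC content of the 10. The 2 chains of the TSLP receptor thus had ratios of opposite sign in *Hps1*-/- mice as measured, at 1.69 and -1.42, and lay 0.83 and -0.10 from 0 after the correction.

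*Il2ra* (ENSMUSG00000026770, plus strand of chromosome 2 from 11642807 to 11693193) encodes CD25, the chain that gives the IL-2 receptor its high affinity, and the cells were cultured in IL-2. It had 1794 reads in PBS-WT and 1625 in PBS-HPS1, then 2189 in BLEO-WT and 1509 in BLEO-HPS1, or 23.0, 16.4, 27.9 and 23.9 CPM. PBS-HPS1 was lowest and BLEO-WT highest. The log2 ratio was -0.49 (-0.59 to -0.39) for PBS-HPS1 against PBS-WT, 0.28 (0.19 to 0.37) for bleomycin in WT and 0.54 (0.44 to 0.64) for bleomycin in *Hps1*-/- mice. The last was -0.10 with total counts alone and 1.59 after the correction, so its sign depended on the scaling.

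*Il9r* (ENSMUSG00000020279, minus strand of chromosome 11 from 32187541 to 32200279), the receptor gene of a growth factor of ILC2s and mast cells, was the lowest of the 10 per kb of its longest transcript in all 4 libraries. The 801 reads in PBS-WT and 844 in PBS-HPS1, then 981 in BLEO-WT and 1083 in BLEO-HPS1 were 10.3, 8.52, 12.5 and 17.1 CPM. BLEO-HPS1 was highest, with a log2 ratio of 1.01 (0.88 to 1.14) to PBS-HPS1 and 0.45 (0.33 to 0.58) to BLEO-WT. The former was 1.23 after the correction, but -0.22 relative to the summed CD3 chains, a choice made after the data were seen.

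*Il18r1* (ENSMUSG00000026070, plus strand of chromosome 1 from 40465552 to 40500854) starts 136 bases beyond the annotated end of *Il1rl1* and encodes the chain that binds IL-18. It had 9161 reads in PBS-WT and 7462 in PBS-HPS1, then 2912 in BLEO-WT and 1735 in BLEO-HPS1, or 118, 75.4, 37.1 and 27.5 CPM. Each library stood apart from the next, and both bleomycin libraries were below both PBS libraries. Its log2 ratio was -1.66 (-1.72 to -1.60) for bleomycin in WT mice, where it was the single receptor gene past a 2-fold ratio, -1.46 (-1.53 to -1.38) for bleomycin in *Hps1*-/- mice and -0.64 (-0.69 to -0.60) for PBS-HPS1 against PBS-WT. After the correction these were -1.29, -0.39 and -0.70. In the same libraries 7 genes of ILC3s summed to 71.0, 38.2, 35.7 and 27.4 CPM, and the NK and ILC1 genes, whose cells also respond to IL-18, had a median log2 ratio of -1.29 for bleomycin in WT and -0.50 in *Hps1*-/- mice.

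Of the surface markers, *Icos* (ENSMUSG00000026009, plus strand of chromosome 1 from 60977927 to 61000320) encodes a costimulatory receptor of the CD28 family. It was counted 6232 times in PBS-WT and 7672 in PBS-HPS1, then 4028 in BLEO-WT and 2027 in BLEO-HPS1, at 79.9, 77.5, 51.4 and 32.1 CPM. The PBS libraries did not differ beyond counting error, with a log2 ratio of -0.05 (-0.09 to 0.003), or 0.20 with total counts alone. After bleomycin it was lower, at -0.64 (-0.70 to -0.58) in WT and -1.27 (-1.34 to -1.20) in *Hps1*-/- mice, and the correction left -0.25 and -0.32.

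*Klrg1* (ENSMUSG00000030114, minus strand of chromosome 6 from 122270596 to 122282882), which encodes an inhibitory receptor for cadherins and marks activated ILC2s, was highest in BLEO-HPS1. There were 1031 reads in PBS-WT and 1038 in PBS-HPS1, then 1385 in BLEO-WT and 2248 in BLEO-HPS1, or 13.2, 10.5, 17.7 and 35.6 CPM. The bleomycin-to-PBS log2 ratio was 0.42 (0.30 to 0.54) in WT and 1.76 (1.66 to 1.87) in *Hps1*-/- mice, and that of BLEO-HPS1 to BLEO-WT was 1.01 (0.91 to 1.11). The correction gave 0.38, 1.47 and 0.86, the last no longer past a 2-fold ratio. Relative to the summed CD3 chains, BLEO-HPS1 and BLEO-WT had the same level of *Klrg1*, with a log2 ratio of 0.00.

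*Thy1* (ENSMUSG00000032011, plus strand of chromosome 9 from 44043384 to 44048579), the gene of CD90, was the most abundant of the 10 per kb in 3 libraries. It had 23893 reads in PBS-WT and 20374 in PBS-HPS1, then 17531 in BLEO-WT and 34791 in BLEO-HPS1, or 306.5, 206, 224 and 551 CPM. BLEO-HPS1 stood far above the other libraries. The bleomycin-to-PBS log2 ratio was -0.46 (-0.48 to -0.43) in WT and 1.42 (1.40 to 1.45) in *Hps1*-/- mice, and BLEO-HPS1 was above BLEO-WT by 1.30 (1.27 to 1.33). After the correction the values were -0.67, 0.57 and 0.72. The summed levels of T cell and of fibroblast genes were also highest in BLEO-HPS1. In BLEO-WT against PBS-WT, where *Thy1* was lower, the fibroblast genes had a median log2 ratio of 0.91 and the T cell genes of -0.12. Relative to the summed CD3 chains the bleomycin ratios of *Thy1* were -0.14 and 0.19, and BLEO-HPS1 was above BLEO-WT by 0.29.

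**Figure D3:**
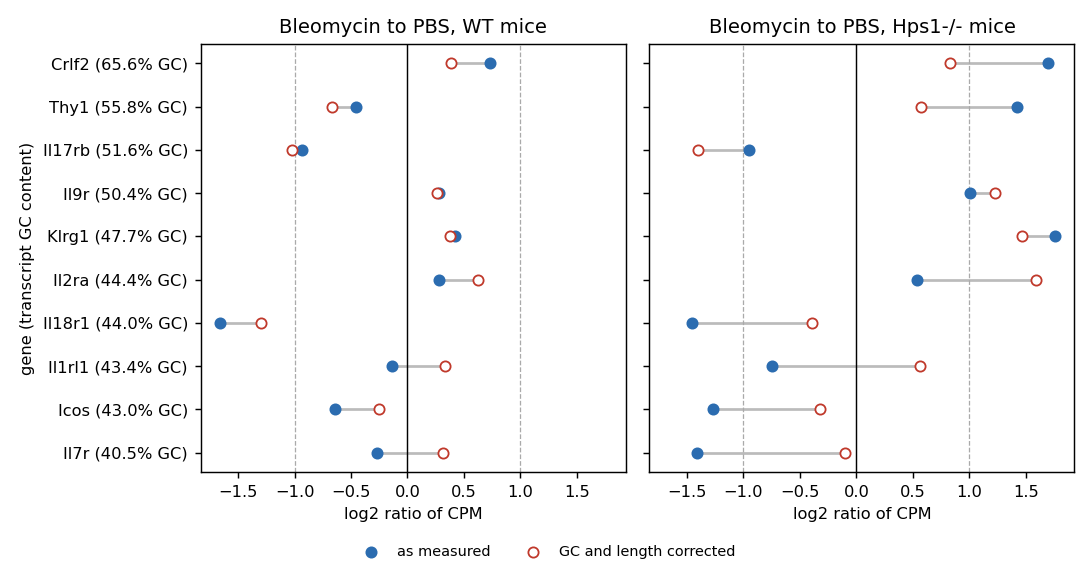
Log2 ratio of bleomycin to PBS for each receptor gene in WT (left) and *Hps1*-/- mice (right), as measured (filled) and after the GC and length correction (open), with genes ordered by transcript GC content and dashed lines at a 2-fold ratio. In *Hps1*-/- mice *Il1rl1* moves from -0.75 to 0.56 and *Il7r* from -1.42 to -0.10, while *Klrg1* lies above the upper line at 1.76 and 1.47, and *Il17rb* crosses the lower line from -0.95 to -1.40.

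Counted together, 0 of the 10 genes passed a 2-fold ratio upward and 0 downward in PBS-HPS1 against PBS-WT, where 2.16% of all compared genes were higher and 3.11% lower. In BLEO-WT against PBS-WT 0 were higher and 1, *Il18r1*, was lower, against 5.28% and 8.22% of all genes, and after the correction 2 were lower (*Il18r1* and *Il17rb*) and 0 higher, against 5.52% lower and 5.28% higher. In BLEO-HPS1 against PBS-HPS1 4 were higher (*Crlf2*, *Il9r*, *Klrg1* and *Thy1*) and 3 lower (*Il7r*, *Il18r1* and *Icos*), against 26.2% and 19.6% of all genes. This comparison moved a large share of the genome, and 7 of 10 is to be read beside these shares. After the GC and length correction, 3 were higher (*Il2ra*, *Il9r* and *Klrg1*) and 1 was lower (*Il17rb*), against 16.0% and 8.36% of all genes. In BLEO-HPS1 against BLEO-WT 2 were higher (*Klrg1* and *Thy1*) and 0 lower, against 6.72% and 10.3%. After the correction neither call remained (*Klrg1* 0.86 and *Thy1* 0.72), and 0 of 10 passed in either direction, against 4.99% higher and 4.52% lower. The median log2 ratio of the 10 genes was -0.30, -0.20, -0.10 and 0.00 in these 4 comparisons, and that of all compared genes was -0.19, 0.09, 0.25 and -0.04. After the correction the medians were -0.28, 0.29, 0.57 and 0.12 for the 10 genes and -0.21, 0.12, 0.28 and -0.07 for all genes, so the sign for the 10 turned in both comparisons of bleomycin with PBS. The comparisons share libraries, so their values are not independent of each other.

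**Figure D4:**
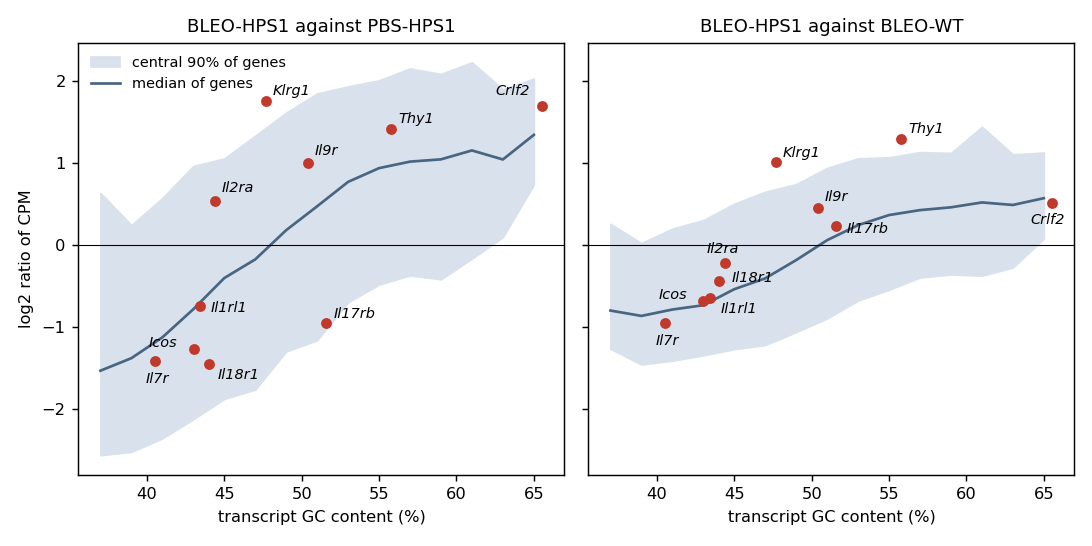
Log2 ratio of CPM against transcript GC content for BLEO-HPS1 against PBS-HPS1 (left) and BLEO-HPS1 against BLEO-WT (right). The line is the median and the band the 5th to 95th percentile of genes in bins of 2 percentage points of GC content; *Il1rl1*, *Il7r* and *Icos* lie near the median of genes of like GC content, *Klrg1* above the band in both panels, and *Thy1* above it on the right.

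Set against genes of like GC content, the receptor genes fell into several kinds. For BLEO-HPS1 against PBS-HPS1 the median log2 ratio was -0.78 among 903 genes around 43% GC, where *Il1rl1* was at -0.75 and *Icos* at -1.27. Around 47%, 1151 genes had a median of -0.18 and a 95th percentile of 1.34, and *Klrg1*, at 1.76, was above it. Around 51%, 1196 genes had a median of 0.47 and a 5th percentile of -1.16, and *Il17rb*, at -0.95, was above that limit but far below the median. Around 55%, the median was 0.94 over 1144 genes, with *Thy1* at 1.42. After the correction, *Il2ra* stood at percentile 94.1 of all genes, *Klrg1* at 92.9 and *Il9r* at 89.3, whereas *Il17rb* stood at percentile 5.11. These places are descriptions and rest on single libraries.

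The difference of the bleomycin ratios, *Hps1*-/- minus WT, compares the genotypes in their response. It was largest for *Thy1* at 1.88, then *Klrg1* at 1.34, *Crlf2* at 0.96 and *Il9r* at 0.72. *Il2ra* and *Il18r1* were at 0.26 and 0.21, *Il17rb* at -0.02, *Il1rl1* at -0.61, *Icos* at -0.63 and *Il7r* at -1.15. The median of the 10 was 0.23 and that of all compared genes 0.15. After the correction *Thy1* was at 1.25, *Klrg1* at 1.09, *Il9r* at 0.97, *Il2ra* at 0.96, *Il18r1* at 0.90, *Crlf2* at 0.44, *Icos* at -0.06, *Il17rb* at -0.38 and *Il7r* at -0.42, and *Il1rl1* changed sign to 0.24. The median of the 10 was then 0.67 and that of all genes 0.17. With 1 library per group no such difference could be tested.

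Per kb of transcript *Thy1*, *Crlf2* and *Il7r* held the first 3 ranks in every library but BLEO-HPS1, and *Il9r* the last in all 4. *Thy1* (177 CPM per kb), *Crlf2* (82.8) and *Il7r* (50.7) led in PBS-WT, followed by *Il18r1* (28.3), *Icos* (24.7), *Klrg1* (9.35), *Il1rl1* (7.72), *Il17rb* (6.29), *Il2ra* (5.22) and *Il9r* (2.29). In BLEO-WT *Crlf2* (137) was above *Thy1* (129). *Klrg1* took rank 6, 8, 5 and 3 and *Il18r1* rank 4, 5, 6 and 6 in the order PBS-WT, PBS-HPS1, BLEO-WT, BLEO-HPS1. In BLEO-HPS1 *Klrg1* (25.2) ranked just above *Il7r* (21.7), and *Il1rl1* (4.48) came below *Il2ra* (5.41). Neighbours in this order whose counting intervals overlapped were *Il1rl1* and *Il17rb* (7.53 and 7.48) and *Il17rb* and *Klrg1* (7.48 and 7.41) in PBS-HPS1, and *Il17rb* and *Il9r* (3.86 and 3.82) in BLEO-HPS1. With the merged exons of a gene as its length, chosen after the data were seen, *Crlf2* came before *Thy1* in BLEO-HPS1 and *Il17rb*, not *Il9r*, was lowest in both bleomycin libraries. No replicate gives the spread of these levels between mice.

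The chains that pair with these receptors were measured in all 4 libraries. *Il1rap*, the shared partner of T1/ST2, had 37.8, 31.5, 34.0 and 12.1 CPM, with a log2 ratio of -1.38 (-1.49 to -1.26) for BLEO-HPS1 against PBS-HPS1 and -0.01 after the correction. *Il17ra*, the partner of IL-17RB, had 378, 267, 277 and 267 CPM, and its ratio in the same comparison was 0.00 (-0.03 to 0.03). The common gamma chain gene *Il2rg*, at 119, 100.2, 103 and 174 CPM, and the IL-2 receptor beta chain gene *Il2rb*, at 186, 244, 170 and 335 CPM, were highest in BLEO-HPS1. *Il18rap*, the second chain of the IL-18 receptor, had 47.3, 44.4, 37.9 and 29.7 CPM. Of these 5 chains 0 were at least 2-fold higher and 1, *Il1rap*, was lower by as much in BLEO-HPS1 than in PBS-HPS1, against 26.2% and 19.6% of all genes.

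Of the 10 ligand genes, 6 were high enough to compare. *Il33*, which encodes the ligand of T1/ST2 and is made by epithelial and stromal cells, had 271, 338, 294 and 593 reads and was higher in BLEO-HPS1 than in PBS-HPS1 by 1.45 (1.26 to 1.66). *Il18* had 64.9, 57.4, 24.6 and 14.5 CPM, with a log2 ratio of bleomycin to PBS of -1.40 (-1.48 to -1.32) in WT and -1.98 (-2.08 to -1.88) in *Hps1*-/- mice, so the ligand and its receptor gene *Il18r1* were both lower as measured. *Icosl*, the ligand gene of ICOS, had 57.6, 47.5, 85.4 and 88.1 CPM, and *Cdh1*, the gene of a cadherin bound by KLRG1, had 67.8, 61.2, 105 and 105 CPM. Both were higher with bleomycin, *Icosl* by 0.57 and 0.89 and *Cdh1* by 0.64 and 0.77 in WT and *Hps1*-/- mice. *Cdh2*, another such cadherin, had 124, 179, 102 and 103 reads, and *Il7* had 111, 142, 57 and 49. The others were scarce: *Tslp* had 15 to 41 reads, *Il2* 12 to 67, *Il25* 0 to 6 and *Il9* 0 to 4, where 3 reads stand for 0.0303 to 0.0475 CPM. The IL-2 of the culture medium leaves no reads.

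*Il1rl1* and *Il18r1* lie in a row of IL-1 receptor genes on chromosome 1, and these neighbours did not move as a block. In BLEO-WT against PBS-WT *Il1r2*, the decoy receptor gene, was at 1.04 and *Il1rl2*, the IL-36 receptor gene, at 0.99, whereas *Il1r1* was at -0.67, *Il1rl1* at -0.13, *Il18r1* at -1.66 and *Il18rap* at -0.32. The closest pair, *Il1rl1* and *Il18r1*, differed by more than their counting intervals. In BLEO-HPS1 against BLEO-WT all 6 were below 0, from -0.29 for *Il1r1* to -1.07 for *Il1rl2*, with a median of -0.54, and after the correction the median was 0.12. The neighbours of *Icos* in its receptor cluster were also lower in BLEO-HPS1 than in PBS-HPS1, *Cd28* with a log2 ratio of -1.72 (-1.79 to -1.64) and *Ctla4* with -0.59 (-0.66 to -0.53), and the correction left -0.28 and 0.04. Both are genes of T cells, whose CD3 chains were higher in the same comparison, with a summed log2 ratio of 1.23.

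Downstream of the receptors, 19 signalling genes included 1 at least 2-fold higher and 2 lower by as much in BLEO-HPS1 than in PBS-HPS1, with a median log2 ratio of 0.34. In this comparison 26.2% of all genes were higher and 19.6% lower by that ratio, and the counts of this paragraph are to be read beside these shares. The largest among the signalling genes were *Pik3r1* (-1.79), a regulatory subunit of PI3 kinase, *Jak2* (-1.37) and *Jak3* (1.34), the kinase of the common gamma chain. Next came *Myd88* (0.98), the adaptor of the IL-1 family, and *Traf6* (-0.90). Of 10 feedback genes, which restrain these pathways, 5 were at least 2-fold higher and 0 lower, led by *Socs3* (1.58), *Sigirr* (1.41), *Socs1* (1.12) and *Cish* (1.02), while *Tnfaip3* was at -0.90. In BLEO-WT against PBS-WT 3 of these 10 were at least 2-fold higher and 0 lower, against 5.28% and 8.22% of all genes. *Socs3* had 409 and 360 CPM in the PBS libraries and 1360 and 1080 in BLEO-WT and BLEO-HPS1. Among 28 other receptor genes known from ILC2s, 7 were at least 2-fold higher and 5 lower in BLEO-HPS1 than in PBS-HPS1, shares near those of all genes, among them the leukotriene B4 receptor gene *Ltb4r1* (2.51), *Ly6a* (2.40), which encodes Sca-1, *Tnfrsf18* (1.74), which encodes GITR, *Calcrl* (-1.74), which encodes a chain of the CGRP receptor, and *Cd28*. Of 17 transcription factor and effector genes of ILC2s that were compared, 1 was at least 2-fold higher and 4 lower, with *Arg1* at 5.80 and *Rora* at -2.57, and *Rora* was at -0.53 after the correction. *Arg1* is also made in quantity by macrophages.

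The genes whose profiles over the 4 libraries were most like those of the receptor genes were found by the distance between centred log2 CPM values among 8150 genes with at least 10 CPM in every library. For *Il1rl1* they were *Ipo8* (distance 0.00878), *Usp42* (0.0154) and *Fbxo28* (0.0175), and for *Il7r* *Tbc1d23* (0.0227), *Satb1* (0.0301) and *Dlg1* (0.0412). *Thy1* lay nearest to *Ltb* (0.0683), the T cell receptor segment *Trbv13-2* (0.12) and the integrin gene *Itgb7* (0.12). *Klrg1* lay nearest to *Pycrl*, *Tuba1a* and *Bcl7c* (0.0525 to 0.0679), *Crlf2* to *Tmem106c*, *Aph1a* and *Akr1a1* (0.0238 to 0.0386), and *Icos* to *Phactr2*, *Rsbn1* and *Tra2b* (0.0251 to 0.0675). *Il9r* lay nearest to *Eral1*, *Fasn* and *Zfp282* (0.0268 to 0.0319), *Il2ra* to *Ccdc115*, *Ak6* and *Atp6v1b2* (0.0393 to 0.0597), *Il17rb* to *Stat4*, *Nedd4* and *Banp* (0.0704 to 0.206) and *Il18r1* to *Nsrp1*, *Trim12c* and *Fam111a* (0.175 to 0.195). With 4 points a profile is short, and likeness over these libraries says nothing of a shared function.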

How the data were processed

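Lung cells, sorted as ILC2s and then kept in IL-2, were sequenced in 4 groups with 1 library each, mapped from the sample titles. The authors deposited raw counts of reads for each Ensembl gene, not normalized, from libraries made with a SMARTER mRNA kit. The aligner, counting tool, genome build and number of mice per library are not given in the sources used here. Of the 49315 identifiers, 49056 were found in GENCODE M21, and its GRCm38 positions, longest coding transcripts and GC contents were used. Promoters were taken from RefSeq (GRCm38.p6). The 174 genes without a symbol held at most 0.00722% of the reads of a library.

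Counts were scaled with TMM factors (edgeR 4.0.16, R 4.3.3), which were 1.08, 1.27, 0.895 and 0.816 in the order PBS-WT, PBS-HPS1, BLEO-WT, BLEO-HPS1. Log2 ratios used a prior count of 2. The comparison took in every gene that reached 1 CPM in some library, and called it higher or lower from a log2 ratio of 1 upward in size. Level intervals are exact Poisson and ratio intervals exact Clopper-Pearson intervals at 95%. PCR copies are not independent molecules, so only counting error is covered by the intervals and by the floor of 3 reads. No test between conditions was possible with 1 library per group. Log2 ratios were also corrected by loess (span 0.3) on GC content and log10 length, fitted on 11133 genes with a mean log2 CPM above 2. Steps were checked on data with known answers.

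The 10 genes, the other lists and the tests were chosen with earlier results of these data known. Named besides the 10 are all members of the partner, ligand and cluster lists, up to 5 genes of each other list with the largest ratios at 10 CPM or more, markers near 0, the 3 nearest profiles and *Hps1*. The abundant markers of other cells (*Lyz2*, *Sftpc*, *Cd68*, *Cd3e*, *Trac*), *Gata3* and *Ptprc* were named after their values were seen. Real-time PCR, ELISA and flow cytometry were not analysed here.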

Additional observations from a re-analysis of the deposited data

Results flagged for a closer look

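*Thy1* was singled out because its log2 ratio of bleomycin to PBS had opposite signs in the genotypes, -0.46 in WT and 1.42 in *Hps1*-/- mice, a difference of 1.88. The signs stayed opposite with DESeq2's size factors (-0.47 and 1.43) and with total counts alone (-0.72 and 0.78). After the GC and length correction the ratios were -0.67 and 0.57, with a smaller difference of 1.25. Relative to the summed CD3 chains, chosen after seeing the data, the ratios were much smaller in size (-0.14 and 0.19). Relative to *Ptprc* both were positive (0.98 and 3.21). With 1 library per group the difference was not tested. T cell and fibroblast genes were highest in the same library, BLEO-HPS1, while in BLEO-WT against PBS-WT the fibroblast genes had a median log2 ratio of 0.91, and their part in the difference was not tested.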

How the results depend on the processing

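No paired analysis was possible because each group had 1 library and the labels carry no replicate numbers, and for the same reason no library could be left out. Of 40 log2 ratios of the receptor genes, 0 changed sign with DESeq2's size factors (version 1.42.0), with TMM factors computed without immunoglobulin genes or with prior counts of 0.5 or 10, 3 with total counts alone, 8 after the GC and length correction, 16 relative to *Ptprc* and 13 relative to the summed CD3 chains, the last chosen after seeing the data. Relative to *Ptprc*, whose own ratio went from -1.79 to -0.41 with the correction, BLEO-HPS1 against PBS-HPS1 reversed for *Il7r* (0.37), *Il18r1* (0.33) and *Icos* (0.52), and relative to CD3 for *Il9r* (-0.22). Every other ratio of that comparison was also lower relative to CD3 than as measured. *Il1rl1* was then at -1.97, *Il17rb* at -2.18, *Il7r* at -2.64, *Il18r1* at -2.68, *Icos* at -2.50 and *Il2ra* at -0.69. *Crlf2* was at 0.47, *Klrg1* at 0.53 and *Thy1* at 0.19. The median of all genes for BLEO-HPS1 against PBS-HPS1 was 0.25 with TMM factors and -0.39 with total counts alone. With total counts alone the numbers of all genes at least 2-fold higher and lower were 581 and 300 for PBS-HPS1 against PBS-WT, 481 and 1914 for BLEO-WT against PBS-WT and 1385 and 4949 for BLEO-HPS1 over PBS-HPS1. Among the 10 receptor genes that setting gave 2 lower for BLEO-WT against PBS-WT and 2 higher and 5 lower for BLEO-HPS1 against PBS-HPS1. It gave 1 higher and 1 lower for BLEO-HPS1 against BLEO-WT. These counts are to be read beside those of all genes. Without a filter other than 1 read, 37499 genes were compared. Of these, 6769 were higher and 1941 lower in PBS-HPS1 against PBS-WT, and 2417 and 6330 in BLEO-WT against PBS-WT. In BLEO-HPS1, 5401 were higher and 12258 lower against PBS-HPS1, and 3389 and 4268 against BLEO-WT. At a log2 threshold of 2 the numbers higher and lower in the 4 comparisons were 41 and 149, 169 and 270, 649 and 815, and 222 and 62, and of the receptor genes 0 passed in any comparison. The correction for GC content and length gave 2374 higher and 1239 lower genes for BLEO-HPS1 against PBS-HPS1 and 669 lower for BLEO-HPS1 against BLEO-WT, and, of the receptor genes, 2 lower for BLEO-WT against PBS-WT, 1 lower for BLEO-HPS1 against PBS-HPS1 and 0 higher for BLEO-HPS1 against BLEO-WT. The cause of these changes was not tested. Depth was not limiting, since the scarcest receptor gene value rested on 510 reads. What limits every value is the single library per group, the RNA of other cells and the dependence of the bleomycin ratios on GC content and length.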

Other observations

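Lists of other cells not described above differed between the libraries too, in the order PBS-WT, PBS-HPS1, BLEO-WT, BLEO-HPS1. Neutrophil genes summed to 1480, 412, 826 and 375 CPM, and all 9 that were compared were at least 2-fold lower in PBS-HPS1 than in PBS-WT, against 3.11% of all genes, a comparison in which 0 of the 10 receptor genes passed that ratio. Epithelial genes summed to 1318, 976, 762 and 537 CPM over 10 genes. In both genotypes, however, 5 of these 10 were higher and 5 lower with bleomycin. Eosinophil genes summed to 224, 170, 32.2 and 17.4 CPM over 5 genes. B and plasma cell genes summed to 258, 225, 199 and 474 CPM over 11 genes, dendritic cell genes to 1041, 879, 1096 and 1271 over 8, and endothelial genes to 850.0, 792, 916 and 1190.3 over 8. The genes of the lineage panel used in the sort, 8 of which were measured, summed to 2018, 1523, 1177 and 1297 CPM. These sums include *Ptprc*, whose bleomycin-to-PBS log2 ratio was -1.43 in WT and -1.79 in *Hps1*-/- mice. In BLEO-HPS1 against PBS-HPS1, however, 7 of the 8 genes were higher, 5 of them at least 2-fold, against 26.2% of all genes. Only *Ptprc* was lower there. In BLEO-WT against PBS-WT 2 of the 8 were higher and 6 lower. The number of cells behind a library was lowest for PBS-WT, at 22405, and highest for BLEO-HPS1, at 128647, so cell number and group cannot be told apart.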
